A study of Mus musculus with 16 samples.

Results

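The genes followed here encode parts of the LMO2 transcription complex and progenitor factors grouped with it: Lmo2, Lmo4, Ldb1, Lyl1, Tal1, Gata2, Gfi1b, Hhex and Nfe2. The study names Lyl1 and Hhex among the downstream targets of Lmo2. The genes followed were taken by symbol, each matched 1 row in each of the 2 count tables, and they make up 9 of the 22114 protein-coding genes listed there. LMO2 is a LIM-only adaptor that does not bind DNA itself. It joins the scaffold LDB1 to basic helix-loop-helix factors such as TAL1 or LYL1, paired with E proteins, and to GATA factors, and complexes of this kind act on enhancers of blood stem cells, early progenitors and the erythroid and megakaryocytic lineages. Lmo2 is normally switched off as T-cell progenitors commit in the thymus, and its forced expression there is a known cause of T-cell leukemia in mice and humans.

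All libraries were RNA-seq of sorted DN3 thymocytes (CD4-CD8-CD25+CD44-), the stage at which T-lineage commitment is completed, from mice on a C57BL/6 background (C57BL/6J in the study's methods). RNA was pooled from 3 to 5 mice per sample. In the genotype experiment, total DN3 cells of 6-week-old mice were compared among wild-type mice (WT, 3 libraries), mice without the cell-cycle inhibitor p21 (p21-/-, 2 libraries), mice with the CD2-Lmo2 transgene (Lmo2Tg, 2 libraries) and mice with both changes (Lmo2Tg;p21-/-, 2 libraries). In the label-retention experiment, all mice were 2-month-old H2B-GFP;Lmo2Tg animals heterozygous for TetOP-H2B-GFP. These mice had received doxycycline for 6 weeks, which induces the histone-GFP label, and then none for 2 weeks. DN3 cells that kept the label because they had divided little (GFPhi, 3 libraries) were compared with cells that had diluted it (GFPlo, 3 libraries), and both groups carried the transgene. The transgene is driven by the CD2 promoter, which is active across T-lineage cells. Reads from the transgene and from the mouse Lmo2 gene are both counted as Lmo2. Total counts were 13864936 to 16837667 per genotype library and 26861394 to 31106213 per GFP library, so that 3 counts, the smallest number read as a level here, came to 0.176 to 0.222 counts-per-million (CPM) in the former and 0.0966 to 0.112 CPM in the latter. CPM are counts scaled by the trimmed mean of M-values (TMM) within each experiment, and no test crosses the experiments.

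The markers of the sorted stage were present. All 15 listed DN3 genes had counts in every library, and they summed to 9702 to 12624 CPM in the genotype experiment and 11499 to 13763 CPM in the GFP experiment. The targeted gene of p21-/- mice, Cdkn1a, was at 36.5, 37.5 and 49.0 CPM in WT and at 14.3 and 17.7 CPM in p21-/- libraries. It was at 32.8 and 26.3 CPM in Lmo2Tg and at 4.35 and 3.50 CPM in Lmo2Tg;p21-/- libraries. The p21-/- groups therefore lay below their p21-sufficient counterparts in every library, but the gene was not at 0. It fell by 1.36 on the log2 scale (SE 0.17, adjusted p = 0.00821) in p21-/- against WT and by 2.92 (SE 0.21, adjusted p = 9.08e-05) in Lmo2Tg;p21-/- against Lmo2Tg. These and all other adjusted p-values come from the quasi-likelihood test of edgeR, adjusted by the Benjamini-Hochberg method over all genes tested, and a gene was called at an adjusted p under 0.05. Without p21-/- replicate 1 or 2, the p21-/- against WT difference was -1.22 (adjusted p = 0.0934) or -1.52 (adjusted p = 0.0555).

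In total DN3 cells, the transgene came with higher Lmo2, Lyl1, Hhex, Nfe2 and Gata2, whether or not p21 was present, while Ldb1, Tal1, Gfi1b and Lmo4 did not pass the test. Against WT, 5 of the 9 genes rose in Lmo2Tg cells and none fell, where 36.6% of all 11840 genes tested were called, 19.7% as higher and 16.9% as lower. Against p21-/-, 5 of the 9 rose in Lmo2Tg;p21-/- cells and none fell, where 30.7% of all genes were called, 16.3% as higher and 14.4% as lower. The median log2 fold change of the 9 genes was 1.88 in the former comparison and 2.97 in the latter, against -0.01 and -0.0043 over all genes. All 5 also passed a fold change above 2 in both comparisons, as did 12.0% and 10.4% of all genes. Lmo2, 1 of the 5, holds the reads of the transgene itself, so its call was fixed by the design. It is part of these counts and medians, and the other called genes were Lyl1, Hhex, Nfe2 and Gata2. Lmo2 and Gata2 had at most 5 counts in each library without the transgene. They passed the filter for low counts (minimum count 10) only through transgenic libraries. The comparisons have no control library in common, but all 9 libraries share 1 estimate of the spread, and the comparisons of p21 loss use the same libraries again. The genes were chosen with earlier results of these data known, so these shares are a description.

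**Figure D1:**
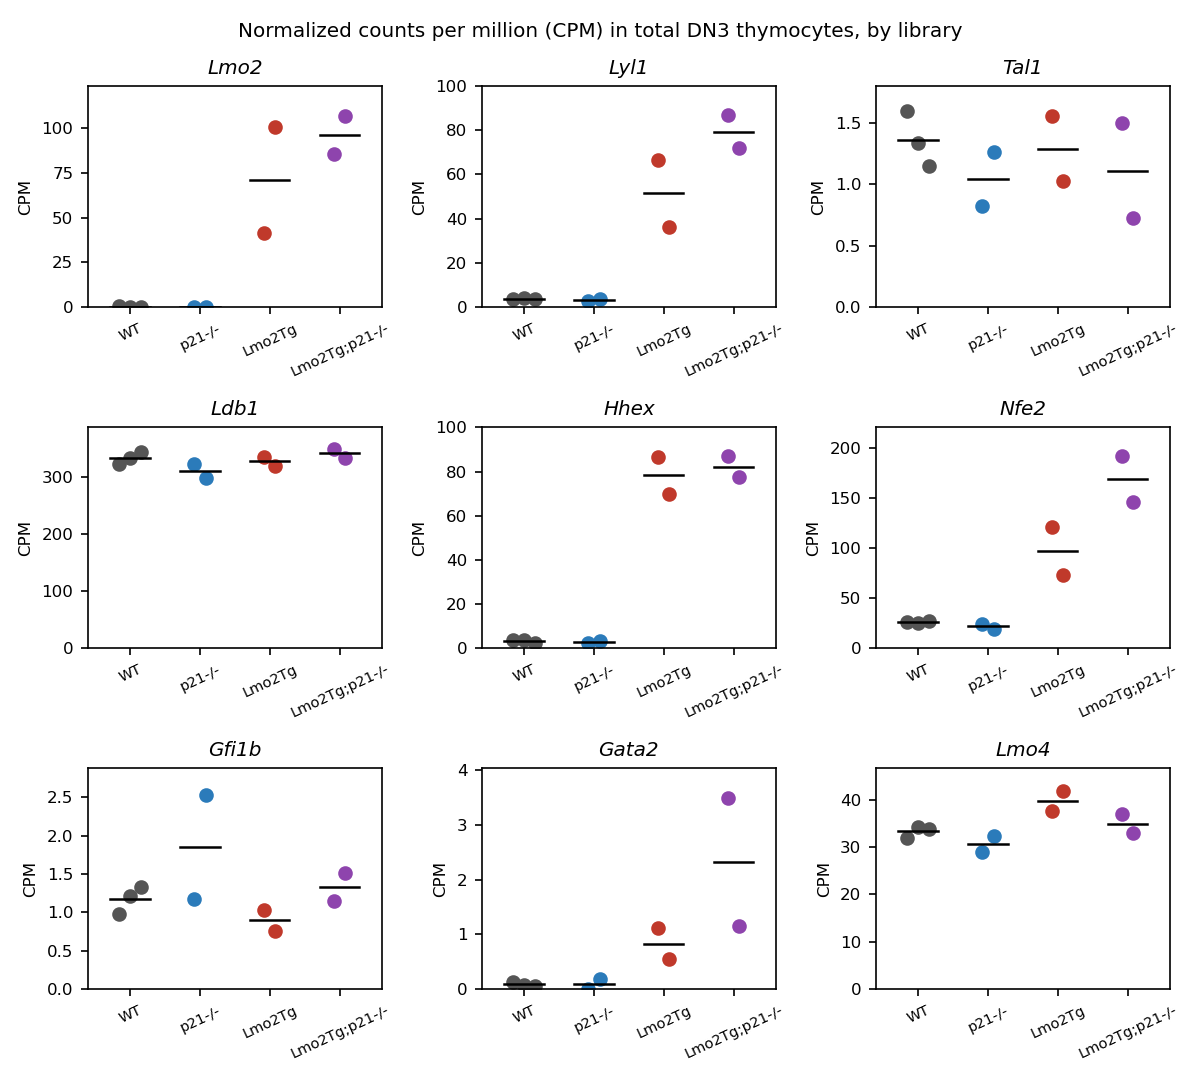
Normalized counts-per-million (CPM, y axis, starting at 0) of the 9 genes in each library of total DN3 thymocytes, by genotype (x axis); points are libraries and bars are group means. The Lmo2Tg and Lmo2Tg;p21-/- libraries lie above all WT and p21-/- libraries for Lmo2, Lyl1, Hhex, Nfe2 and Gata2, and the groups overlap for Tal1.

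Among the LIM adaptors and their scaffold, Lmo2 (ENSMUSG00000032698, chr2:103957986-103981878, GRCm38, plus strand) was at 0.306, 0.0636 and 0.242 CPM in WT libraries, which rest on 5, 1 and 4 counts. It was at 0.176 and 0.190 CPM in p21-/- libraries, with 3 counts each. The transgenic libraries held 41.4 and 100.4 CPM (Lmo2Tg a and b) and 85.4 and 107 CPM (Lmo2Tg;p21-/- 1 and 2). Non-transgenic DN3 cells thus had Lmo2 at or near the smallest level these depths show, and no transgenic library came near them. The log2 fold change was 8.38 (SE 0.50, adjusted p = 1.12e-06) for Lmo2Tg against WT and 8.98 (SE 0.59, adjusted p = 2.28e-06) for Lmo2Tg;p21-/- against p21-/-. As a ratio of summed counts per depth, these were 349.98-fold (95% counting interval 189.9 to 731) and 532-fold (244 to 1450). Counting intervals here cover counting error only.

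Ldb1, the scaffold that LIM-only proteins bind, was at 323, 333 and 344 CPM in WT, at 322 and 298 CPM in p21-/-, at 336 and 319.96 CPM in Lmo2Tg and at 350.1 and 333 CPM in Lmo2Tg;p21-/- libraries. All 9 libraries lay within a narrow range. The log2 difference was -0.02 (95% interval -0.19 to 0.14, adjusted p = 0.825) for Lmo2Tg against WT and 0.14 (-0.04 to 0.32, adjusted p = 0.215) for Lmo2Tg;p21-/- against p21-/-. Of the exon bases of Ldb1, 3.84% are shared with Pprc1 on the other strand. Lmo4, the paralog of Lmo2 that also binds LDB1, was at 31.9, 34.2 and 33.9 CPM in WT and at 37.7 and 41.9 CPM in Lmo2Tg libraries. Those groups did not overlap, as for 60.9% of all genes, and the difference of 0.26 (SE 0.10, adjusted p = 0.0578) did not pass the test. In p21-/- libraries Lmo4 was at 29.0 and 32.3 CPM and in Lmo2Tg;p21-/- libraries at 37.0 and 32.9 CPM, a difference of 0.19 (SE 0.11, adjusted p = 0.194). Neither Lmo4 nor Ldb1 overlapped between those groups, as for 70.9% of all genes.

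Values per gene depend on transcript length. Levels of the genes followed here were therefore set against each other only per kilobase of exon (CPM per kilobase, written FPKM). Marker lists were summed in CPM, and the gene leading a list was named by CPM, not by level per length. In WT cells Ldb1 stood at 72.4 FPKM and Lmo2 at 0.0942 FPKM. The ratio of Ldb1 to Lmo2 was 496 and 669 in WT replicates 1 and 3. It came to 2466 in WT replicate 2, where Lmo2 had 1 count, below the level of 3 counts. In p21-/- libraries the ratio was 739 and 862. It was 3.82 and 1.50 in Lmo2Tg libraries and 1.93 and 1.46 in Lmo2Tg;p21-/- libraries. By this measure transgenic cells held Lmo2 mRNA within a few fold of Ldb1 mRNA, and Ldb1 remained the higher in each of these 4 libraries. The length used is that of the mouse Lmo2 gene, and the length of transgene transcripts was not examined.

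Of the basic helix-loop-helix partners, only Lyl1 was called. Lyl1 (ENSMUSG00000034041, chr8:84701457-84704715, plus strand) encodes a factor of the TAL1 family that dimerizes with E proteins. It was at 3.74, 3.94 and 3.57 CPM in WT and at 2.64 and 3.61 CPM in p21-/- libraries. It was at 66.6 and 36.2 CPM in Lmo2Tg and at 86.7 and 72.0 CPM in Lmo2Tg;p21-/- libraries. Every transgenic library was above every other library, and the Lmo2Tg libraries differed from each other more than the Lmo2Tg;p21-/- libraries did. Lyl1 rose by 3.77 on the log2 scale (SE 0.24, adjusted p = 1.71e-06) in Lmo2Tg against WT and by 4.67 (SE 0.29, adjusted p = 1.51e-06) in Lmo2Tg;p21-/- against p21-/-. It shares 0.222% of its exon bases with Nfix on the other strand.

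Tal1, the other helix-loop-helix partner and a regulator of blood stem cells and the erythroid lineage, rested on 12 to 26 counts per genotype library. It was at 1.59, 1.34 and 1.15 CPM in WT, at 0.821 and 1.27 CPM in p21-/-, at 1.55 and 1.03 CPM in Lmo2Tg and at 1.50 and 0.725 CPM in Lmo2Tg;p21-/- libraries. All groups overlapped. The differences were -0.08 (95% interval -0.93 to 0.77, adjusted p = 0.891) for Lmo2Tg against WT and 0.07 (-0.90 to 1.04, adjusted p = 0.917) for Lmo2Tg;p21-/- against p21-/-. The E proteins that pair with both factors were abundant in every group, with Tcf3 at a mean of 336 CPM in WT and 332 CPM in Lmo2Tg, and Tcf12 at 616 and 689 CPM, and neither passed the test in either transgene comparison. Tcf4, the other listed E protein, was lower with the transgene. It went from 80.8 ± 3.36 CPM in WT (SD, n = 3) to 61.5 ± 7.93 CPM in Lmo2Tg (SD, n = 2), a fall by 0.39 (adjusted p = 0.00612) that was not called without Lmo2Tg b (adjusted p = 0.0633), and fell by 0.33 (adjusted p = 0.0241) in Lmo2Tg;p21-/- against p21-/-, not called without any one of those 4 libraries (adjusted p = 0.0611 to 0.116).

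Hhex, a homeobox repressor of early blood and endothelial progenitors, had the largest fitted rise after Lmo2 itself among the 9 genes in both comparisons. Its 95% interval overlapped those of Lyl1 and Gata2 in each, so the order among these genes is not fixed. Hhex (ENSMUSG00000024986, chr19:37434810-37440731, plus strand) was at 3.62, 3.69 and 2.36 CPM in WT and at 2.29 and 3.23 CPM in p21-/- libraries. It was at 86.6 and 69.9 CPM in Lmo2Tg and at 86.9 and 77.6 CPM in Lmo2Tg;p21-/- libraries. The transgenic libraries lay close together and far above all others. Hhex rose by 4.60 on the log2 scale (SE 0.17, adjusted p = 5.10e-08) in Lmo2Tg against WT and by 4.90 (SE 0.21, adjusted p = 1.61e-07) in Lmo2Tg;p21-/- against p21-/-.

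Nfe2 encodes the large subunit of the NF-E2 factor of erythroid cells and megakaryocytes, which binds DNA with a small MAF protein. Nfe2 (ENSMUSG00000058794, chr15:103248212-103258403, minus strand) was at 26.2, 25.1 and 27.5 CPM in WT and at 23.6 and 19.5 CPM in p21-/- libraries. It was at 121 and 73.0 CPM in Lmo2Tg and at 193 and 146 CPM in Lmo2Tg;p21-/- libraries. Nfe2 was thus well expressed without the transgene, and all 4 transgenic libraries were higher still. It rose by 1.88 on the log2 scale (SE 0.19, adjusted p = 3.28e-05) in Lmo2Tg against WT and by 2.97 (SE 0.22, adjusted p = 4.58e-06) in Lmo2Tg;p21-/- against p21-/-. The median log2 fold change over the genes of chromosome 15 was 0.13 and 0.09 in these comparisons.

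Of the zinc-finger factors, Gata2 was called and Gfi1b was not. No library without the transgene reached the minimum count of 10 for Gata2, so it entered the test only through the group where it is high. Gata2, a regulator of blood stem cells, progenitors and mast cells, had 2, 1 and 1 counts in WT and 0 and 3 counts in p21-/- libraries. It had 15 and 8 counts in Lmo2Tg (1.11 and 0.547 CPM) and 49 and 19 counts in Lmo2Tg;p21-/- libraries (3.50 and 1.15 CPM). The transgenic libraries were higher without overlap, at levels that remained low. The fitted log2 fold change was 3.20 (SE 0.92, adjusted p = 0.0197) for Lmo2Tg against WT and 4.52 (SE 0.86, adjusted p = 0.00270) for Lmo2Tg;p21-/- against p21-/-. As a ratio of summed counts per depth, Gata2 was 9.92-fold (95% counting interval 3.39 to 39.5) and 24.4-fold (7.99 to 121) higher. The latter fitted change was 3.53 without p21-/- replicate 1 or without Lmo2Tg;p21-/- replicate 1. It was 8.15 without p21-/- replicate 2, which leaves a control library at 0 counts, so that this value depends on the prior count. The Lmo2Tg against WT call was lost without Lmo2Tg a (2.62, adjusted p = 0.146) and without WT replicate 3 (3.03, adjusted p = 0.0624).

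Gfi1b, a repressor required for erythroid and megakaryocytic maturation, was at 0.981, 1.21 and 1.33 CPM in WT and at 1.17 and 2.53 CPM in p21-/- libraries. It was at 1.04 and 0.752 CPM in Lmo2Tg and at 1.14 and 1.51 CPM in Lmo2Tg;p21-/- libraries. Its highest level was in p21-/- replicate 2, a library without the transgene. The differences were -0.40 (95% interval -1.32 to 0.53, adjusted p = 0.492) for Lmo2Tg against WT and -0.46 (-1.34 to 0.42, adjusted p = 0.408) for Lmo2Tg;p21-/- against p21-/-. The listed erythroid markers summed to 34.8 CPM in p21-/- replicate 2 and to 2.54 to 16.5 CPM in the other 8 libraries, led by the globin gene Hbb-bs at 14.7 CPM in that library, and their part in its Gfi1b level was not tested.

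The windows before the start sites of Lyl1 and Hhex, which rose, and of Gfi1b, which was not called, are printed so that the promoters of genes that did and did not move can be set side by side. The sequences are from RefSeq (build GRCm38.p6) and lie at chr8:84701207-84701456 (Lyl1, plus strand), chr19:37434591-37434809 (Hhex, plus strand) and chr2:28621983-28622232 (Gfi1b, minus strand, printed on that strand). Capitals mark matches, on either strand, to GATAA (bound by GATA factors), CANNTG (the E-box) and GGAAG (the core bound by ETS factors such as Erg, Fli1 and Spi1), and no matches of different motifs overlap in these windows.
Lyl1: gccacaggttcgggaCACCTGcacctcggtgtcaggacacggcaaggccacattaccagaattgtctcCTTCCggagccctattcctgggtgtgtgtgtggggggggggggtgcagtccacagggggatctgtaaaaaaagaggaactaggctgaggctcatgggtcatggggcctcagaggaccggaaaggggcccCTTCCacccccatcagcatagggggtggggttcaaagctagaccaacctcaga
Hhex: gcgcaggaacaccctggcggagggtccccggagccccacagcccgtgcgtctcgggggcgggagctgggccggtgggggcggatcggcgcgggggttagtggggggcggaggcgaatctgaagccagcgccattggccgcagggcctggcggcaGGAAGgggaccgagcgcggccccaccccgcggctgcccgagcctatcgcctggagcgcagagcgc
Gfi1b: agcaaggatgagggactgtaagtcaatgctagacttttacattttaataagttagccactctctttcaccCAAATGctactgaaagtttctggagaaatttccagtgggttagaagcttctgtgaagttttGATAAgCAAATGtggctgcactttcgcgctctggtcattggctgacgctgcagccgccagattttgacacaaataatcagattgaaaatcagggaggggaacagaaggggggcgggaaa
In the 250 bases before the start, Lyl1 held 1 CANNTG and 2 GGAAG, Hhex held 1 GGAAG, and Gfi1b held 1 GATAA and 2 CANNTG. Counted from the base before the start as -1, the matches begin at -235 (CANNTG), -182 and -53 (GGAAG) in Lyl1, at -96 in Hhex, and at -119 (GATAA), -180 and -113 (CANNTG) in Gfi1b. Of 32817 windows of the same length in RefSeq, 22.6% hold GATAA, 66.2% hold CANNTG and 64.1% hold GGAAG, so the E-box and ETS letters are common at this length. The window of Hhex is printed up to the gene start of the GENCODE M21 annotation, so its last 31 bases before the RefSeq start, from which the positions are counted, are not shown. Neither start-site window of Gata2 held a match to any of the 3 motifs, and the 3 windows of Ldb1 held 2 GATAA, 1 CANNTG and 2 GGAAG between them. Windows were found for 7 of the 9 genes.

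Ordered by mean level per length, Lmo2, Lmo4, Hhex, Gfi1b and Tal1 held different places in WT and Lmo2Tg cells. Ldb1, Nfe2, Lyl1 and Gata2 held the same places. In WT cells the order was Ldb1 (72.4 FPKM), Lmo4 (9.45), Nfe2 (8.79), Lyl1 (2.08), Gfi1b (0.641), Hhex (0.637), Tal1 (0.310), Lmo2 (0.0942) and Gata2 (0.0152), and the libraries of Lmo4 and Nfe2 overlapped, as did those of Gfi1b and Hhex. In Lmo2Tg cells it was Ldb1 (71.2 FPKM), Lmo2 (32.7), Nfe2 (32.4), Lyl1 (28.6), Hhex (15.5), Lmo4 (11.3), Gfi1b (0.488), Tal1 (0.294) and Gata2 (0.153). Lmo2, Nfe2 and Lyl1 overlapped with their neighbours there and could not be ordered. In Lmo2Tg;p21-/- cells Nfe2 (56.7 FPKM), Lmo2 (44.4) and Lyl1 (44.1) again overlapped below Ldb1 (74.2) and above Hhex (16.3) and Lmo4 (9.91). The p21-/- order matched that of WT, from Ldb1 (67.4 FPKM) to Gata2 (0.0176 FPKM).

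**Figure D2:**
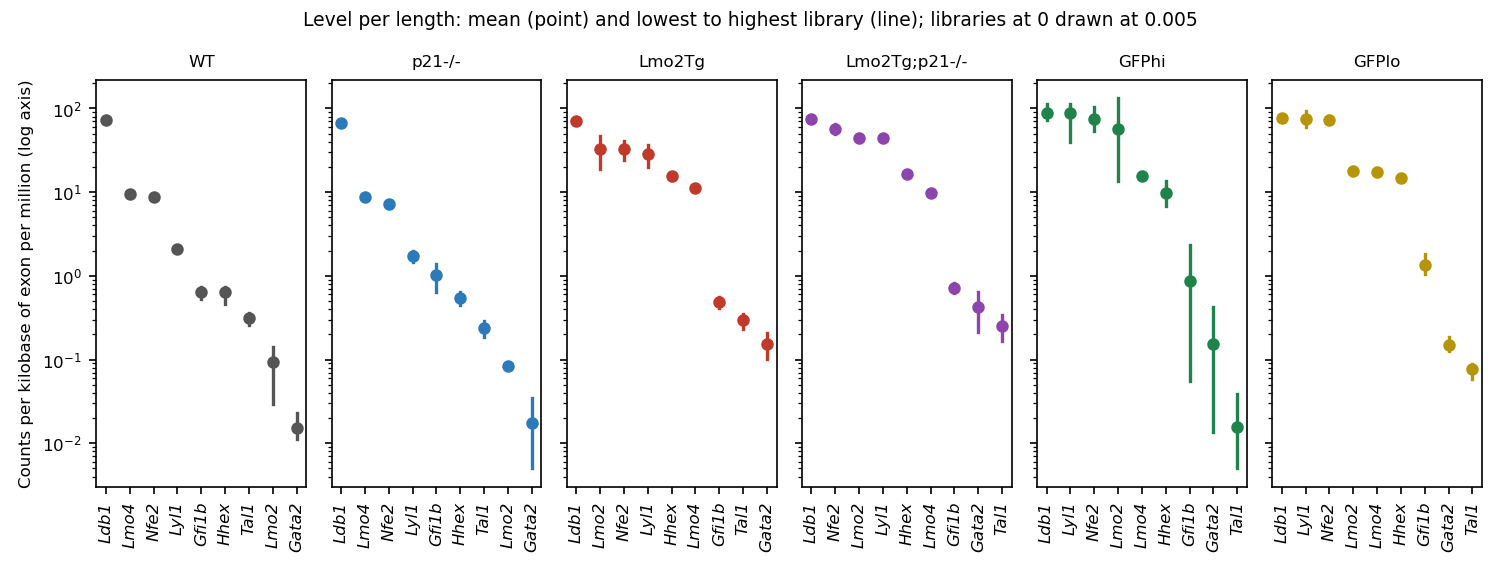
Level per length (CPM per kilobase of exon, FPKM, log y axis) of the 9 genes, ordered by mean within each group; points are means over the group's libraries and lines run from the lowest to the highest library. Hhex stood at 0.637 in WT and 15.5 in Lmo2Tg, between Lmo4 and Lyl1, while Tal1 and Gata2 were at 0.43 or lower in every group.

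Loss of p21 was then compared with and without the transgene. In p21-/- against WT cells, none of the 9 genes was called by edgeR, DESeq2 or limma-voom, which called 0.110%, 0.169% and 0.127% of all genes. None of the 9 had an unadjusted p under 0.05 in any of the 3, where 3.30% of all genes did in edgeR. The log2 differences ran from -0.39 for Tal1 to 0.65 for Gfi1b. Lmo2 had 1 to 5 counts and Gata2 0 to 3 counts in each of these libraries (SE 1.52 and 1.42), so for both only a large change could have been detected. With the transgene, 1 of the 9 genes, Nfe2, was higher in Lmo2Tg;p21-/- than in Lmo2Tg cells, where 6.94% of all genes were called and 3.35% were called higher. Nfe2 was at 193 and 146 against 121 and 73.0 CPM, without overlap, a log2 difference of 0.81 (SE 0.20, adjusted p = 0.0388). The call was lost without Lmo2Tg b (0.49, adjusted p = 0.168), without either Lmo2Tg;p21-/- library (0.58, adjusted p = 0.270, and 0.98, adjusted p = 0.0503), without WT replicate 1 or 2 (0.81, adjusted p = 0.0629, and 0.80, adjusted p = 0.0583), and when only the 4 libraries compared were fitted (0.79, adjusted p = 0.121).

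The other transgene-associated genes did not pass the test between Lmo2Tg;p21-/- and Lmo2Tg. Lyl1 differed by 0.63 (95% interval 0.14 to 1.12, adjusted p = 0.112) and Gata2 by 1.47 (0.13 to 2.80, adjusted p = 0.162), in each case without overlap of the groups, as for 54.8% of all genes. Lmo2 itself differed by 0.44 (-0.21 to 1.09, adjusted p = 0.385), and its Lmo2Tg libraries lay apart at 41.4 and 100.4 CPM. Without Lmo2Tg a, Lyl1 differed by 1.13 and was called (adjusted p = 0.00959). Without Lmo2Tg b the Lmo2 difference became 1.22 (adjusted p = 0.00882) and without a it became -0.07 (adjusted p = 0.829). Hhex differed by 0.07 (-0.26 to 0.41, adjusted p = 0.809).

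The interaction asks whether the effect of the transgene differed between mice with and without p21. None of the 9 genes and 1.38% of all genes were called by edgeR, and 2 of the 9 (Nfe2 and Lyl1) and 18.1% of all genes had an unadjusted p under 0.05. DESeq2 called 1 of the 9 and 3.88% of all genes, and limma-voom called 0 and 0.921%. For Nfe2 the difference between the transgene effects was 1.09 (SE 0.29, adjusted p = 0.0915). DESeq2 gave 1.08 (adjusted p = 0.00331) for it, and without Lmo2Tg a edgeR gave 1.50 (adjusted p = 0.0304). For Lyl1 the difference was 0.90 (SE 0.39, adjusted p = 0.260), and for Hhex 0.30 (SE 0.29, adjusted p = 0.614). Without Lmo2Tg a, Lyl1 was at 1.40 (adjusted p = 0.0485).

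**Figure D3:**
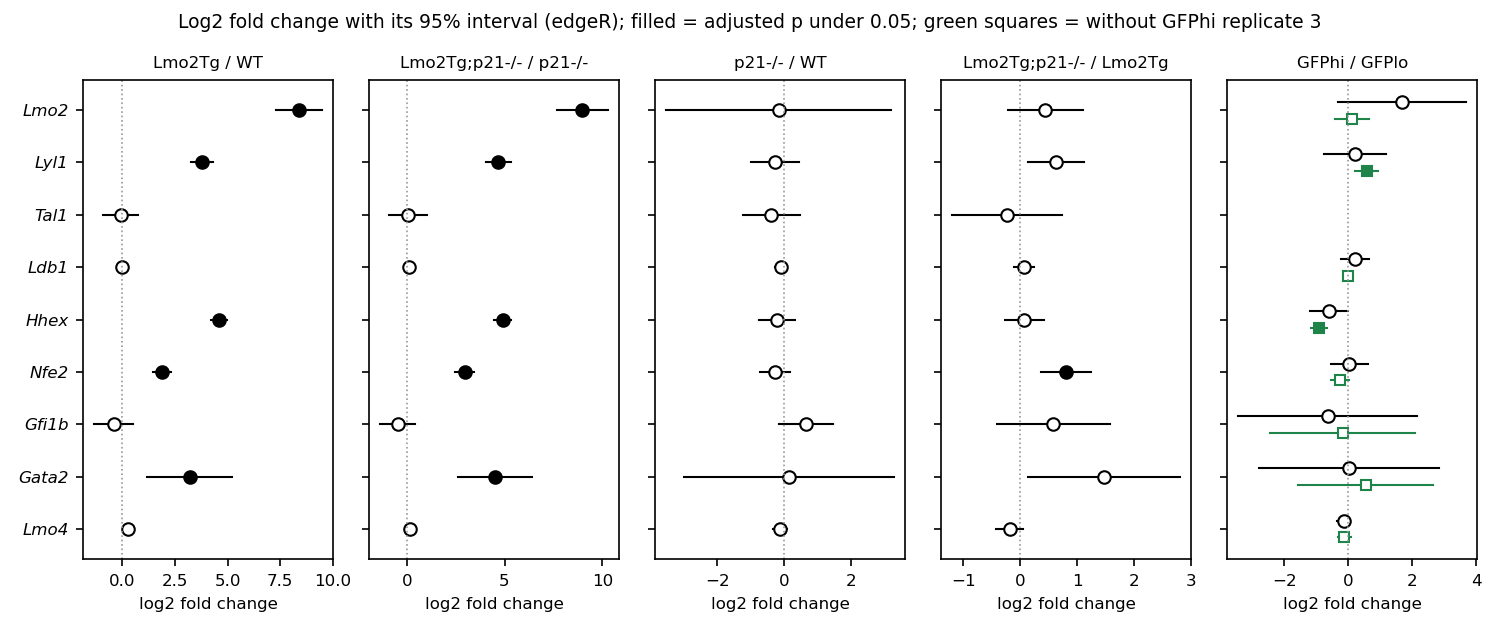
Log2 fold change (x axis) of the 9 genes (y axis) with its 95% interval from edgeR, in 5 comparisons; filled symbols have an adjusted p under 0.05, and green squares leave out GFPhi replicate 3. The same 5 genes, Lmo2, Lyl1, Hhex, Nfe2 and Gata2, are filled in both comparisons with and without the transgene, and none is filled for p21-/- against WT.

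Within each transgenic genotype, the library with more Lmo2 had less Lyl1, Hhex, Nfe2 and Gata2, and also less Ldb1 and Tal1, which were not called. Of the Lmo2Tg libraries, the one with less Lmo2 (a, 41.4 against 100.4 CPM) had more Lyl1 (66.6 against 36.2 CPM), Hhex (86.6 against 69.9), Nfe2 (121 against 73.0) and Gata2 (1.11 against 0.547). The Lmo2Tg;p21-/- libraries showed the same order, with 85.4 against 107 CPM of Lmo2 and 86.7 against 72.0 CPM of Lyl1, 86.9 against 77.6 of Hhex, 193 against 146 of Nfe2 and 3.50 against 1.15 of Gata2. The order did not hold between the groups, as Lmo2Tg;p21-/- 1 had more Lmo2 than Lmo2Tg a and also more Lyl1, Hhex, Nfe2 and Gata2. These are 2 libraries in each group, and no test was made. In the same libraries, the mast cell and basophil list was almost wholly Cpa3 and moved with these genes, at 675 and 333 CPM in Lmo2Tg a and b and at 829 and 547 CPM in Lmo2Tg;p21-/- 1 and 2.

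The other genes of the complex and its partners were read from a list of 25 cofactors and paralogs, of which 22 were tested. In Lmo2Tg against WT, 6 rose, 4 fell and 12 were not called, where 36.6% of all genes were called and 19.7% were called higher, with a median of 0.10 against -0.01 over all genes. The ETS factors Spi1, which directs myeloid and early progenitor programs, and Erg, a stem cell regulator, rose most. Spi1 went from 2.89 ± 0.81 (SD, n = 3) to 11.9 ± 1.30 CPM (SD, n = 2), a log2 change of 2.05 (adjusted p = 6.63e-05), and Erg from 49.6 ± 4.90 to 126 ± 8.55 CPM, a change of 1.35 (adjusted p = 6.13e-06). Mafk, a small MAF partner of NFE2, rose by 0.87 (adjusted p = 2.60e-05), and the corepressor Cbfa2t3 (ETO2) by 0.45 (adjusted p = 0.00327). The LDB1-binding Ssbp4 fell by 0.65 (adjusted p = 5.50e-04). Lmo1, a paralog of Lmo2, was also called lower (adjusted p = 0.00587); it is named although it lies below the level of 1 CPM set for naming, and it was at 0.572 to 0.858 CPM in WT and at 0 and 0.0740 CPM in Lmo2Tg libraries, the latter below the level of 3 counts.

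In Lmo2Tg;p21-/- against p21-/-, 7 of the 22 rose, 2 fell and 13 were not called, where 30.7% of all genes were called and 16.3% were called higher, with a median of 0.02. Spi1 rose by 2.08 (adjusted p = 1.79e-04), Erg by 1.63 (adjusted p = 4.32e-06), Gata1 by 0.93 (adjusted p = 0.00864), Cbfa2t3 by 0.61 (adjusted p = 0.00110) and Fli1 by 0.61 (adjusted p = 9.98e-04). Gata1, the erythroid GATA factor, stayed low, from 3.53 to 6.72 CPM on average. Mafk was not called in this comparison. It was lower in Lmo2Tg;p21-/- than in Lmo2Tg cells, at 84.8 ± 1.26 against 172 ± 11.2 CPM (SD, n = 2 each), a fall by 1.02 (adjusted p = 4.27e-04). It was the only 1 of the 22 called there, where 6.94% of all genes were called. Mafk shares 4.33% of its exon bases with Tmem184a on the other strand. None of the 22 was called in p21-/- against WT by edgeR, DESeq2 or limma-voom, and 2 had an unadjusted p under 0.05 in each.

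Genes of early thymic progenitors, a list of 12 of which 10 were tested, moved in both directions. In Lmo2Tg against WT, 5 rose, 4 fell and 1 was not called, where 36.6% of all genes were called, 19.7% higher and 16.9% lower, with a median of 0.62. The progenitor surface protein Cd34 rose by 2.41 (adjusted p = 1.32e-04), from 2.39 ± 0.99 (SD, n = 3) to 12.7 ± 1.91 CPM (SD, n = 2), and Kit, the stem cell factor receptor, by 1.14 (adjusted p = 7.01e-04), from 74.5 ± 11.0 to 164 ± 49.4 CPM. Itga2b, which encodes an integrin of megakaryocytes and early progenitors, rose by 1.16 (adjusted p = 0.0249), a call lost by DESeq2 and without WT replicate 2 or 3 or either Lmo2Tg library. The progenitor transcription factors Bcl11a and Hoxa9 fell by 1.23 (adjusted p = 4.40e-05) and by 1.79 (adjusted p = 0.0117), the latter not without Lmo2Tg b (adjusted p = 0.0836). In Lmo2Tg;p21-/- against p21-/-, 3 rose, 3 fell and 4 were not called, where 30.7% of all genes were called, 16.3% higher and 14.4% lower. Cd34 rose by 2.09 (adjusted p = 8.57e-04), Kit by 1.66 (adjusted p = 1.48e-04) and Mycn by 0.86 (adjusted p = 0.00340), while Bcl11a fell by 1.82 (adjusted p = 5.93e-06) and Mef2c by 1.82 (adjusted p = 1.21e-04). Cd34 shares 2.03% and Bcl11a 2.4% of exon bases with genes on the other strand.

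**Figure D4:**
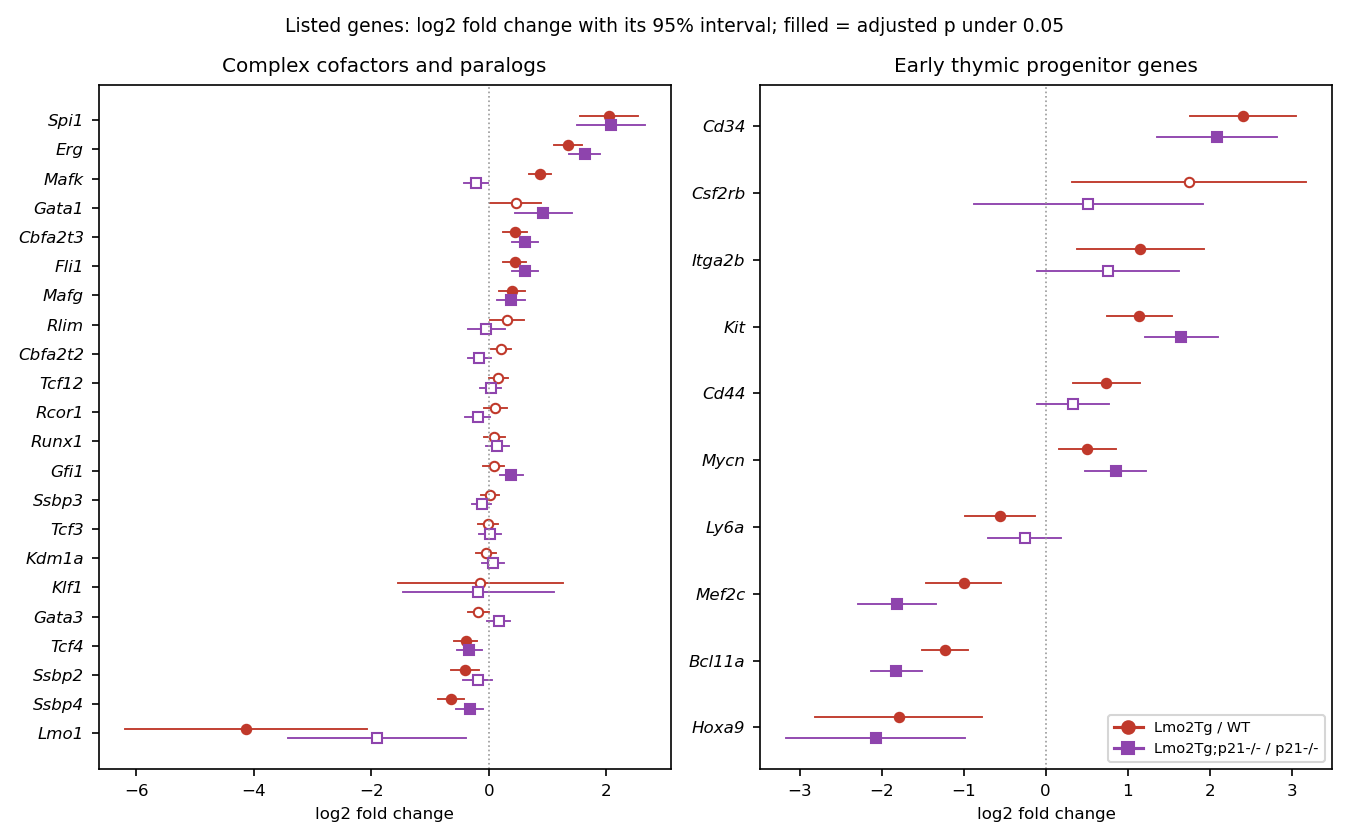
Log2 fold change (x axis) with its 95% interval from edgeR for the tested genes of both lists (y axis), Lmo2Tg against WT in red circles and Lmo2Tg;p21-/- against p21-/- in purple squares; filled symbols have an adjusted p under 0.05. Spi1, Erg, Cd34 and Kit are filled on the right in both comparisons, Bcl11a and Mef2c on the left, and Tcf3, Tcf12, Gata3 and Runx1 are open near 0.

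By Pearson's r of log2 CPM over the 9 genotype libraries, among 11034 genes, the genes most like Lmo2 were Wnt5b (r = 0.996), Stard13, Tbx4, Atp9a and Map4 (0.994). Those most like Hhex were Kcns3 (r = 0.998), Aox1, E030002O03Rik, Deptor and Prr13 (0.996), and those most like Nfe2 were Slc17a5 (r = 0.998), Stat5a, Gga3, Cd37 and Itgb3 (0.996). Tbx4 went from a mean of 0.0822 CPM in WT to 39.8 CPM in Lmo2Tg cells, and Itgb3 from 19.2 to 71.8 CPM. The libraries fall into those with and without the transgene, so any gene that differs between these has a high r.

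Markers of other cells that a DN3 sort could hold were read beside these genes. The 6 genes of double-positive thymocytes, the next stage, summed to 74.4 to 89.8 CPM in WT, 79.8 and 82.8 CPM in p21-/-, 230.0 and 297 CPM in Lmo2Tg and 129 and 147 CPM in Lmo2Tg;p21-/- libraries. Cd69 or Cd5 gave the largest part of these CPM, which are not levels per length. In Lmo2Tg against WT, 4 of these 6 rose and 1 fell, and 9 of the 15 DN3 genes fell while 2 rose, where 36.6% of all genes were called, 19.7% higher and 16.9% lower. Without p21, 2 of the 6 double-positive genes rose with the transgene and 1 fell, where 30.7% of all genes were called. Of the 15 DN3 genes, 9 fell and 1 rose there. Of the 7 mast cell and basophil genes, both that were tested rose in Lmo2Tg against WT. They are named, like the myeloid, erythroid and stromal genes here, after their values were seen. Cpa3, a protease gene, rose by 2.43 (adjusted p = 3.57e-05) and made up nearly all of the list's level. Hdc, which encodes the enzyme that makes histamine, rose by 1.82 (adjusted p = 0.0367), from a mean of 0.469 to 1.70 CPM, a call lost without WT replicate 2 or 3 or Lmo2Tg a, while Mcpt8, Ms4a2, Fcer1a, Mcpt4 and Prss34 were too low to be tested. Without p21, 1 of the 2 rose with the transgene, Cpa3 by 3.28 (adjusted p = 1.72e-05), while Hdc was at 0.50 (adjusted p = 0.579). The 8 megakaryocyte and platelet genes summed to 3.08 to 8.36 CPM, led by Gp1ba, with Ppbp and Gp1bb at 0 in every genotype library. The 8 myeloid and dendritic genes summed to 16.6 to 36.3 CPM, with the largest part of the CPM from Lyz2 or, in Lmo2Tg, Mpo. In Lmo2Tg against WT, 3 of the 6 tested rose and 1 fell. Mpo, the myeloperoxidase gene, rose by 5.19 (adjusted p = 1.22e-04), from a mean of 0.209 to 7.80 CPM. The integrin genes Itgam and Itgax rose by 1.69 (adjusted p = 0.00111) and by 1.78 (adjusted p = 0.00875), the latter not called without Lmo2Tg b. Lyz2, the lysozyme gene of myeloid cells, fell by 1.40 (adjusted p = 1.05e-04), from 15.8 to 5.96 CPM. Without p21, where 30.7% of all genes were called, 2 of the 6 rose with the transgene and 1 fell, with Mpo at 2.06 (adjusted p = 0.0241), a call lost by DESeq2 and without p21-/- replicate 1 or either Lmo2Tg;p21-/- library and at 3.95 without p21-/- replicate 2, and Itgam at 1.43 (adjusted p = 0.00437). There the libraries of Lyz2 overlapped, with means of 18.3 CPM in p21-/- and 15.5 CPM in Lmo2Tg;p21-/-. Those of Cebpa, also on the list, went from a mean of 0.770 to 0.0961 CPM, on 25 and 3 summed counts. Of the 6 erythroid genes tested, 1 rose in Lmo2Tg against WT, the globin gene Hbb-bt by 2.72 (adjusted p = 0.00788), from 0.584 to 3.86 CPM, and 0 were called in Lmo2Tg;p21-/- against p21-/-. The 7 B cell genes summed to 18.9 to 40.2 CPM, led by Cd79b, and 1 of the 4 tested fell in Lmo2Tg against WT. The 8 stromal genes summed to 181 to 279 CPM, led by Pecam1, with Foxn1, Krt5 and Pdgfra at 0. In Lmo2Tg against WT, 1 of the 4 stromal genes tested rose and 2 fell, and the counts were the same in Lmo2Tg;p21-/- against p21-/-. Pecam1, a gene of endothelial and blood cells, rose by 0.48 (adjusted p = 0.00201) and by 0.79 (adjusted p = 1.67e-04), while Epcam, an epithelial adhesion gene, fell by 1.46 (adjusted p = 5.22e-06) and by 1.61 (adjusted p = 5.14e-06). Cdh5, the endothelial cadherin gene, also fell (adjusted p = 3.13e-04 and 2.89e-04), from means of 1.50 CPM in WT and 1.67 CPM in p21-/- to 0 counts in each transgenic library. The part of such cells in the levels of the 9 genes was not tested, and in bulk samples a change in the share of a cell type and a change in RNA per cell cannot be told apart.

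In the label-retention experiment, GFPhi replicate 3 stood apart from the other libraries. It lay outside the range of the other 5 for 57.3% of genes, against 22.2% to 37.8% for each of the others, and its mean correlation with its own group was 0.953, against 0.970 and 0.971 for the other GFPhi libraries and 0.992 to 0.995 for GFPlo. It held 7.16 times the mean of the other 5 libraries for Lmo2 and 0.450 times for Lyl1. Its listed double-positive genes summed to 142 CPM, against 285 and 303 CPM in the other GFPhi libraries. Values are therefore given with and without it.

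With all 6 libraries, none of the 8 genes tested was called between GFPhi and GFPlo by edgeR, DESeq2 or limma-voom, which called 14.9%, 25.2% and 15.5% of all 11581 genes. In edgeR, 1 of the 8 (Hhex) and 33.4% of all genes had an unadjusted p under 0.05. The median log2 difference of the 8 genes was 0.02, as over all genes. Without GFPhi replicate 3, Hhex was lower and Lyl1 higher in GFPhi cells, 2 of 9 genes tested, where 41.3% of all genes were called. Without GFPhi replicate 1, 2 other genes were called, Gfi1b and Gata2, where 5.77% of all genes were called. Both had fewer than 10 counts in each remaining GFPhi library and entered that test only through the GFPlo libraries. The calls among the 9 genes thus depended on which GFPhi library was included.

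**Figure D5:**
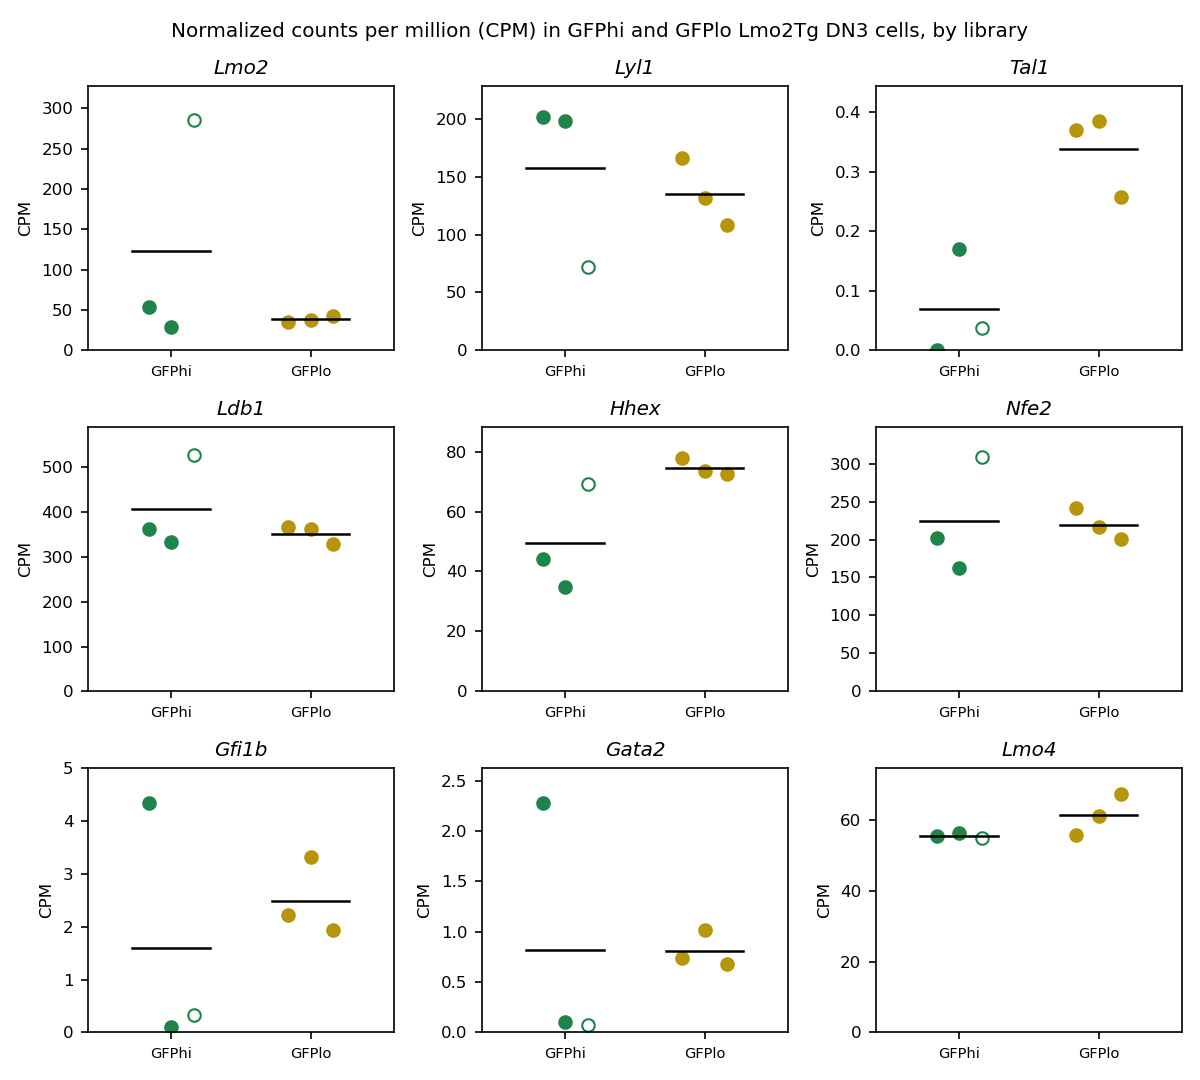
Normalized counts-per-million (CPM, y axis, starting at 0) of the 9 genes in each GFPhi and GFPlo library of Lmo2Tg DN3 cells (x axis); points are libraries, bars are means of all 3, and the open circle is GFPhi replicate 3. The open circle is at 285 CPM for Lmo2, against 29.5 to 53.8 CPM in the other 5 libraries, and GFPhi replicates 1 and 2 lie below all GFPlo libraries for Hhex.

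Hhex was at 44.1, 34.8 and 69.1 CPM in GFPhi and at 78.0, 73.4 and 72.5 CPM in GFPlo libraries. All GFPhi libraries lay below all GFPlo libraries, as they did not overlap for 41.3% of genes, and GFPhi replicate 3 came close to them. The log2 difference was -0.60 (SE 0.24, adjusted p = 0.146), and -0.91 (SE 0.10, adjusted p = 9.49e-04) without GFPhi replicate 3. Lyl1 was at 201, 198 and 72.4 CPM in GFPhi and at 166, 132 and 108 CPM in GFPlo libraries. GFPhi replicates 1 and 2 were above all GFPlo libraries and replicate 3 below all of them. The difference was 0.22 (SE 0.40, adjusted p = 0.734), and 0.57 (SE 0.16, adjusted p = 0.0268) without replicate 3.

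Lmo2 was at 53.8, 29.5 and 285 CPM in GFPhi and at 35.8, 37.5 and 42.3 CPM in GFPlo libraries. Apart from GFPhi replicate 3, the groups overlapped. The difference was 1.67 (SE 0.82, adjusted p = 0.213), and 0.12 (SE 0.23, adjusted p = 0.710) without that library. Ldb1 was at 361, 332 and 526 CPM in GFPhi and at 366, 362 and 328 CPM in GFPlo libraries, a difference of 0.21 (SE 0.18, adjusted p = 0.453), and -0.01 (SE 0.07, adjusted p = 0.882) without replicate 3. The ratio of Ldb1 to Lmo2 per length was 3.16, 5.29 and 0.868 in GFPhi and 4.80, 4.53 and 3.65 in GFPlo libraries, so that GFPhi replicate 3 was the only library of either experiment with more Lmo2 than Ldb1 by this measure.

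Nfe2 was at 202, 162 and 309 CPM in GFPhi and at 241, 216 and 200.3 CPM in GFPlo libraries, which overlapped. The difference was 0.03 (SE 0.24, adjusted p = 0.932), and -0.26 (SE 0.11, adjusted p = 0.106) without replicate 3. The genes of chromosome 15, where Nfe2 lies, had a median log2 difference of -0.43 with or without replicate 3, and those of chromosome 2, which holds Lmo2 and Gfi1b, of -0.18 and -0.19. The part of these shifts in the values was not tested. Lmo4 was at 55.4, 56.2 and 55.0 CPM in GFPhi and at 55.7, 61.1 and 67.2 CPM in GFPlo libraries, a difference of -0.14 (SE 0.08, adjusted p = 0.260).

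The low genes varied most within GFPhi. Gfi1b had 118, 3 and 9 counts in GFPhi (4.34, 0.102 and 0.335 CPM) and 60, 95 and 60 counts in GFPlo libraries (2.22, 3.32 and 1.93 CPM). Gata2 had 62, 3 and 2 counts in GFPhi and 20, 29 and 21 counts in GFPlo libraries. For both genes GFPhi replicate 1 was above all GFPlo libraries and replicates 2 and 3 were below all of them. The differences were -0.65 (SE 1.14, adjusted p = 0.723) for Gfi1b and 0.01 (SE 1.16, adjusted p = 0.996) for Gata2, and without GFPhi replicate 1 they were -3.49 (adjusted p = 0.0360) and -3.12 (adjusted p = 0.0293). Tal1, with 0, 5 and 1 counts in GFPhi and 10, 11 and 8 in GFPlo libraries, was too low to be tested with all 6 libraries, and its ratio of summed counts per depth was 0.215 (95% counting interval 0.0731 to 0.528). Erythroid markers summed to 13.8 CPM in GFPhi replicate 1, 5.39 and 5.40 CPM in replicates 2 and 3, and 7.02 to 15.98 CPM in GFPlo libraries, and megakaryocyte markers to 1.02 to 1.87 CPM in all 6.

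Within the GFPlo group the order of Lmo2 ran against that of Lyl1, Hhex, Nfe2 and Ldb1, but not of Gata2, Tal1, Gfi1b or Lmo4. Replicate 1, with the least Lmo2 (35.8 CPM), had the most Lyl1, Hhex and Nfe2, and replicate 3, with the most Lmo2 (42.3 CPM), had the least of each (108, 72.5 and 200.3 CPM). Gata2 was highest in replicate 2, at 1.01 CPM against 0.740 and 0.676 CPM in replicates 1 and 3, as Tal1 and Gfi1b were, and Lmo4 ran in the order of Lmo2. In the GFPhi group, the library with the most Lmo2 had the least Lyl1 but the most Hhex and Nfe2. These orders rest on 3 libraries a group and were given no test. Per length, Ldb1 (76.4 FPKM), Lyl1 (75.1) and Nfe2 (73.3) overlapped at the top in GFPlo cells, above Lmo2 (17.8), Lmo4 (17.4) and Hhex (14.8), and in GFPhi cells Ldb1 (88.3), Lyl1 (87.2), Nfe2 (75.1) and Lmo2 (56.7) overlapped.

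Of the 21 cofactors and paralogs tested between GFPhi and GFPlo, none was called higher by edgeR and 2 were lower, where 5.37% of all genes were called higher and 9.49% lower. DESeq2 called 4 of the 21 and 25.2% of all genes, limma-voom called 3 and 15.5%, and 5 had an unadjusted p under 0.05 in edgeR, as did 33.4% of all genes. The 2 were Ssbp4 at -0.38 (adjusted p = 0.0135) and Cbfa2t2, a corepressor, at -0.28 (adjusted p = 0.0322). Of the 8 early progenitor genes tested, Kit fell by 1.00 (adjusted p = 0.0101), from 357 ± 21.9 CPM in GFPlo to 178 ± 32.0 CPM in GFPhi (SD, n = 3 each), and Ly6a, which encodes the stem cell antigen Sca-1, by 1.05 (adjusted p = 0.0288). Without GFPlo replicate 2 the call was lost for each of the 4 (for Kit, -0.95, adjusted p = 0.0626). It was also lost without GFPhi replicate 1 and without GFPlo replicate 3 for Ssbp4, Cbfa2t2 and Ly6a, and without GFPhi replicate 2 and without GFPlo replicate 1 for Cbfa2t2 and Ly6a. With the replicate number as a block, the calls of Ssbp4 (adjusted p = 0.0599), Cbfa2t2 (adjusted p = 0.0911) and Ly6a (adjusted p = 0.0755) were lost and that of Kit was not. Cdkn1a was at 35.8, 29.9 and 6.56 CPM in GFPhi and at 12.0, 11.1 and 8.08 CPM in GFPlo libraries, a difference of 1.21 (SE 0.59, adjusted p = 0.207), and 1.67 (adjusted p = 6.24e-04) without GFPhi replicate 3. Of the other markers tested, 1 of the 15 DN3 genes and 2 of the 6 double-positive genes were higher in GFPhi. So were 1 of the 3 stromal genes and 3 of the 6 B cell genes tested, and 5.37% of all genes. The B cell list summed to 27.4, 49.5 and 36.8 CPM in GFPhi against 24.6, 28.2 and 24.9 CPM in GFPlo. Cpa3 made up the mast cell and basophil list here too, at 505 to 669 CPM in GFPhi and 779 to 935 CPM in GFPlo, with Fcer1a and Mcpt4 at 0.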

How the data were processed

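RNA-seq counts of 15 libraries were used. Per the labels, reads were aligned with STAR 2.4.2a to mm10 and counted per gene with featureCounts, and limma was used. The names of the tables hold a word that may be the strand setting, reverse for the GFP experiment and none for the genotypes, and no other source used here gives it. The authors deposited raw counts of 22114 protein-coding genes in a table for each experiment. Of 16 samples in the labels, p21-/- replicate 3 is not analysed here. A column headed like those of Lmo2Tg;p21-/- but numbered 3 was not used, as the labels give that group replicates 1 and 2 only (1 unused column). The Lmo2Tg columns, called a and b here, are headed L with 2 and with 3. These headings fit Lmo2Tg replicates 2 and 3 and are also the short descriptions of GFPlo replicates 2 and 3, so they were taken as the Lmo2Tg group only. Their totals were 14003156 and 15176210 counts, against 28436894 and 31106213 for those GFPlo libraries. The sources do not say whether same-numbered GFPhi and GFPlo libraries came from the same one of the 3 cohorts of mice, and p-values measure the spread between these pools.

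Genes were filtered by filterByExpr (minimum count 10, total 15), TMM-normalized and tested in edgeR 4.0.16 (R 4.3.3) with the quasi-likelihood test, in a fit of the 6 GFP libraries and a fit of the 9 genotype libraries. FPKM are TMM CPM per kilobase of union exon length from GENCODE M21 (98.2% of genes matched). Expression likeness used log2 CPM with a prior count of 2. Alternatives were RLE size factors, no filter, DESeq2 1.42.0, limma-voom (limma 3.58.1), a fold above 2 (with an adjusted p under 0.01 for GFP and under 0.05 for genotypes), the replicate number as a block, TMM without chromosomes 2, 15 and 17, only the groups compared, and each library left out. The 9 genes and all lists were chosen with earlier results of these data known. Besides the 9 genes, the cofactors and early progenitor genes were named if called without overlap of the groups, at 1 CPM or more on average. Up to 5 were named per list and comparison by size of change. Named outside this rule are Tcf3, Tcf12, Tcf4, Lmo1, Gata3, Runx1 and Cdkn1a. So are the marker genes, the genes that share exon bases and those alike in expression. The tests were also run on simulated counts with changes planted in well-counted genes. That run does not cover the genes with few counts or a library that stands apart, and no result here rests on it. Figures were drawn with matplotlib 3.10.9 (Python 3.11.15).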

Additional observations from a re-analysis of the deposited data

Results flagged for a closer look

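By the interaction term in the edgeR fit, adjusted over all genes tested, 3 of the genes read beside the 9 were called, where 1.38% of all genes were called. They were Cdkn1a, 1 of the 22 cofactors and paralogs tested and 1 of the 6 myeloid genes tested. No gene of the early progenitor list or the other marker lists was called. In p21-/- cells the term for Cdkn1a rests on reads left at a disrupted gene. Cdkn1a, the gene disrupted in p21-/- mice, had an interaction of -1.56 on the log2 scale (adjusted p = 0.0319), with means of 41.0 CPM in WT, 16.01 in p21-/-, 29.6 in Lmo2Tg and 3.93 in Lmo2Tg;p21-/- cells. Over 13 alternatives it ranged from -1.73 to -1.39, and in 8 of them it was no longer called, with adjusted p from 1.97e-05 to 0.130 over all of them. Those 8 were limma-voom and leaving out WT replicate 1, 2 or 3, p21-/- replicate 2, Lmo2Tg a or either Lmo2Tg;p21-/- library. Mafk, which encodes a small MAF protein that pairs with NFE2, had an interaction of -1.08 (adjusted p = 0.0165), with means of 94.6 CPM in WT, 98.3 in p21-/-, 172 in Lmo2Tg and 84.8 in Lmo2Tg;p21-/- cells. Over 13 alternatives it ranged from -1.19 to -0.96 (adjusted p from 1.41e-09 to 0.103), and it was no longer called without WT replicate 1 or 3 or without either Lmo2Tg;p21-/- library. Lyz2, a marker of myeloid cells, had an interaction of 1.16 (adjusted p = 0.0376), with means of 15.8 CPM in WT, 18.3 in p21-/-, 5.96 in Lmo2Tg and 15.5 in Lmo2Tg;p21-/- cells. Over 13 alternatives it ranged from 0.89 to 1.36 (adjusted p from 0.00416 to 0.186), and it was no longer called in 9 of them, by limma-voom and without any one library other than p21-/- replicate 1.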

How the results depend on the processing

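Of 1489 single-gene values under an alternative, 1369 kept their direction and call, 69 lost a call, 11 gained one and 40 changed sign. The genotype groups hold 2 or 3 libraries of pooled RNA and the GFP groups 3, so that 1 library could decide a call. Gata2, Tal1 and Gfi1b rested on few counts, as did Lmo2 in cells without the transgene. For Lmo2 and Gata2 in those cells and Tal1 in all cells, a change was not detectable at this depth unless it was large. The cause of the changes listed here was not tested. In Lmo2Tg;p21-/- against p21-/-, 5 of the 9 genes, Lmo2 with its transgene reads among them, were called under every alternative run.

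Among all genes, GFPhi against GFPlo gave 1721 calls, 261 with a fold above 2 and an adjusted p under 0.01 in place of 0.05, 2913 by DESeq2 and 273 (without GFPlo replicate 2) to 4848 (without GFPhi replicate 3) with a library left out. Lmo2Tg against WT gave 4329, 1420 with a fold above 2, and 2815 (without Lmo2Tg a) to 4248 with a library left out. Lmo2Tg;p21-/- against p21-/- gave 3639, 1230 with a fold above 2, and 1914 (without Lmo2Tg;p21-/- replicate 1) to 4251 (without WT replicate 3). The p21-/- against WT comparison gave 13, 21 without a filter, 20 by DESeq2 and 8 to 18 with a library left out. Lmo2Tg;p21-/- against Lmo2Tg gave 822, 222 with a fold above 2, 404 when only these groups were fitted, and 60 (without Lmo2Tg;p21-/- replicate 1) to 1128 (without WT replicate 3). The interaction gave 163, 95 with a fold above 2, 520 without a filter, 459 by DESeq2, and 0 (without WT replicate 1 or 3 or Lmo2Tg;p21-/- replicate 1) to 449 (without p21-/- replicate 1).

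Of the 9 genes, 0 to 2 were called in GFPhi against GFPlo and 4 to 5 in Lmo2Tg against WT with a library left out. In Lmo2Tg;p21-/- against Lmo2Tg, where 1 was called, 0 were called with a fold above 2 or when only these groups were fitted, 2 without a filter (Lyl1, 0.64, adjusted p = 0.0276, was added), and 0 to 2 with a library left out. In the interaction, where 0 were called, 1 was called without a filter, 1 by DESeq2 and 0 to 2 with a library left out.

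In GFPhi against GFPlo, Nfe2 changed sign to -0.0135 by limma-voom and to -0.0157 with the block described in the next paragraph, and Gata2 to -1.48, to -1.12 and, with TMM without chromosomes 2, 15 and 17, to -0.0285. With a library left out, Ldb1 ran from -0.0144 to 0.34, Nfe2 from -0.26 to 0.22 and Gata2 from -3.12 to 0.54. In Lmo2Tg against WT, Tal1 ran from -0.40 to 0.19 and Ldb1 from -0.0577 to 0.0088, and in Lmo2Tg;p21-/- against p21-/- Tal1 from -0.53 to 0.52 and Gfi1b from -0.92 to 0.18. In p21-/- against WT, limma-voom gave 0.0390 for Lmo2 and -0.48 for Gata2, and with a library left out Lmo2 ran from -0.57 to 0.23, Gfi1b from -0.0017 to 1.10 and Gata2 from -3.49 to 1.12. In Lmo2Tg;p21-/- against Lmo2Tg, Lmo2 ran from -0.0670 to 1.22, Tal1 from -0.83 to 0.21 and Hhex from -0.0751 to 0.23. For the interaction, limma-voom gave 0.0313 for Gfi1b, and with a library left out Tal1 ran from -0.45 to 0.60, Gfi1b from -0.52 to 0.58 and Lmo4 from -0.16 to 0.0165.

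The deviations of same-numbered GFPhi and GFPlo libraries from their group means correlated at 0.070, -0.079 and 0.099 across genes, and no source used here ties the numbers to a cohort of mice, so the numbers were not treated as pairs. With the replicate number as a block, 496 genes were called in place of 1721. Among the numbered genotype libraries, such correlations were -0.24 and 0.30 for WT and p21-/- libraries, and the block gave 17 calls in p21-/- against WT and 4964 in Lmo2Tg;p21-/- against p21-/-, against 16 and 3714 in the same libraries without it, an alternative chosen after seeing the data, with 5 of the 9 genes called in the latter comparison either way and Gata2 at -0.0162 in the former with the block.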
